A study of Mus musculus with 6 samples.

Results

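Galectin-1 (Lgals1), the S100 proteins S100a4, S100a6, S100a10 and S100a11, the annexins Anxa1 and Anxa2, and vimentin (Vim) were followed as a group of 8 genes through single cells of the mouse cerebral cortex. The cells were labelled by 2 drivers used to trace pericytes. The group was chosen by measured values: Lgals1 was selected on its level, which separated the cells that the study named radial glial precursors (RGPs) from those it named oligodendrocyte precursor cells (OPCs), and the other genes were picked beside it with earlier results known. All 8 were present in each of the deposited tables, among 19679 genes in the table of naïve cells of both lines, 22833 in the table of the NG2 line and 21008 in the table of the Tbx18 line. Each line carried an inducible Cre and the Ai14 tdTomato reporter, NG2-Cre-ERT2/Ai14-flx or Tbx18-CreERT2/Ai14-flx, and each was sampled naïve, after a physical injury made by injecting saline, and after ischemic stroke made by injecting ET-1/L-NAME. All mice, controls included, had received tamoxifen, were 3 to 4 months old and were of both sexes. Tissue was taken 3 days after injury, and live tdTomato+ DAPI- cells were sorted and loaded on a 10x 3' kit. Since the Cre acts only under tamoxifen, the label records activity of the NG2 transgene or of the Tbx18 locus at that time. It can be carried by cells that used the driver then and by their descendants. The study reports that recombination was not complete. The study states that the NG2 label is also found in oligodendrocyte precursors of the cortex, so it is not limited to mural cells. Cells of several animals were pooled into 1 library per line and condition.

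Galectin-1 is a lectin that binds galactose-containing sugars on cell surface proteins, and it is made by mesenchymal cells, astrocytes and neural stem cells. Most S100 proteins, though not all, are small calcium sensors without enzyme activity that act by binding other proteins. S100a10 pairs with annexin A2, a phospholipid-binding protein, in a complex that gathers plasminogen and its activators at the cell surface, whereas S100a11 binds annexin A1, a phospholipid-binding protein known for limiting inflammation. S100a4 binds non-muscle myosin, S100a6 binds the adaptor encoded by Cacybp, and vimentin is the intermediate filament protein of mesenchymal cells, radial glia and reactive astrocytes.

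The genes lie on 5 chromosomes, and the S100 genes on chromosome 3 form a pair of neighbouring couples (GRCm38, GENCODE M21). Lgals1 spans chr15:78926725-78930465, S100a4 chr3:90603771-90606045, S100a6 chr3:90612882-90624181, S100a11 chr3:93520488-93526287 and S100a10 chr3:93555080-93564643. Anxa2 spans chr9:69453620-69491795, Vim chr2:13573927-13582826 and, as the only member on the minus strand, Anxa1 chr19:20373428-20390944. S100a4, Anxa1 and Anxa2 overlap other annotated genes, and Lgals1 and S100a11 have pseudogenes in the annotation, so reads could have been shared there. RefSeq promoter sequence (GRCm38.p6) was at hand for 6 of the 8 members, and the bases before the gene start of S100a11 and Anxa2 are shown because these members had the most similar levels of any pair across cell groups and because, of the 6, only their windows held the AP-1 motif TGANTCA, searched on both strands. In the lines below, capitals mark that motif. The bases shown are chr3:93520246-93520487 for S100a11 and chr9:69453433-69453619 for Anxa2, both on the plus strand. The windows searched held 250 bases and, for these 2 genes, ran past the gene start, where the bases shown stop.
S100a11: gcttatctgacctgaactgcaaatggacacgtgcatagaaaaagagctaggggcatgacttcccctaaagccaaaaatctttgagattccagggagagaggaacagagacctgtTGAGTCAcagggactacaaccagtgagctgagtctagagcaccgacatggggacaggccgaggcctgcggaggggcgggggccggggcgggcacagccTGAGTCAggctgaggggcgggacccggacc
Anxa2: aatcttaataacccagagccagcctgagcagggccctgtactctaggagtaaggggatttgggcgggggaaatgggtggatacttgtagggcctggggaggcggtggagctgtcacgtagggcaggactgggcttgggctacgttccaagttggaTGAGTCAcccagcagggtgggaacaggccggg
S100a11 held 2 such matches and Anxa2 held 1, and 6.75% of 32851 promoter windows of 250 bases held at least 1. The GC box GGGCGG and the TATA box TATAAA were searched as well. Of the 6 members, the GC box was also found in the 250-base windows of S100a11 and Anxa2 only, 3 times in each, and in 32.7% of all windows. Not all of the Anxa2 matches lie in the bases shown. The TATA box was found in the windows of S100a4, Anxa1, Anxa2 and Vim and in 12.4% of all windows. The Anxa2 match lies outside the bases shown. A match describes the letters of a window and is not a measured binding site.

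The 6 libraries held 17033 cells. The totals were 4306, 2563 and 3586 cells in the naïve, physical injury and ischemic libraries of the NG2 line and 686, 3845 and 2047 cells in those of the Tbx18 line, with 3153996 to 54276245 unique molecular identifiers (UMIs, each a counted RNA molecule) per library and a median of 2806 to 9232 per cell. Library pairs shared 0 to 5 cell barcodes. Counts were added up within each library and cluster and are given as CPM (counts per 1000000 UMIs), and ratios are of these levels with 95% intervals from the counts. Since each group was 1 pooled library and cells are not replicates, the intervals cover counting error only, no difference has a replicate check, and none was tested. A gene is called higher or lower when its ratio, computed with 1 CPM added to both levels, passed 2-fold, among genes with at least 20 counts over both groups, and the share of all such genes called in the same direction is given as the background. Clusters are those of the deposited annotation. In some clusters the leading genes held more markers of another list than of the cell type in the name. The leading genes of NG2 cluster 6, named OPCs by the study, included Neu4 and no listed OPC marker, and those of NG2 cluster 7, named RGPs, included the radial glial gene Fabp7 beside the mitotic genes Cenpf and Ccnb1. Both are therefore called by number, as is Tbx18 cluster 0, which was led by haemoglobin genes. The listed OPC, RGP and endothelial markers were still highest in NG2 cluster 6, NG2 cluster 7 and Tbx18 cluster 0, among the clusters of their line.

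NG2 cluster 7 held far more Lgals1 than cluster 6 in both injured libraries, which is the contrast that chose the group and is given as a description only. After physical injury the Lgals1 level was 17.7 CPM in the 301 cells of cluster 6 and 1393 CPM in the 76 cells of cluster 7, a ratio of 78.7 (61.5 to 102). After ischemic stroke it was 138 CPM in the 294 cells of cluster 6 and 2728 CPM in the 438 cells of cluster 7, a ratio of 19.8 (18.2 to 21.6). Cluster 7 was thus the high one in both libraries, and the ratio was smaller after ischemia, where cluster 6 held more Lgals1. The naïve library had 17 cells in cluster 7 with a median of 987 UMIs and a summed pericyte marker level of 13650 CPM against 35.0 and 49.0 CPM in the injured libraries, and these cells, under the minimum of 20 per group, were left out. Cluster 7 summed to 5519 and 7428 CPM of RGP markers and to 8094 and 4691 CPM of OPC markers after physical and ischemic injury, and their part in the contrast was not tested.

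Partners of the annexins, and vimentin, followed Lgals1. S100a10 stood at 3.17 CPM in cluster 6 and 325 CPM in cluster 7 after physical injury (ratio 102, 57.8 to 200), and at 45.6 and 820 CPM after ischemia (ratio 18.0, 15.5 to 21). Its binding partner Anxa2 went from 2.64 to 70.1 CPM (ratio 26.5, 13.6 to 57.8) and from 20 to 116 CPM (ratio 5.81, 4.64 to 7.38). S100a11 went from 6.34 to 121 CPM (ratio 19.0, 12.2 to 30.9) and from 32.9 to 262 CPM (ratio 7.97, 6.69 to 9.57). Each of these genes was higher in cluster 7 in both libraries. Vimentin, the filament protein, went from 52.8 to 1137 CPM after physical injury (ratio 21.5, 18.5 to 25.1) and from 214 to 2507 CPM after ischemia (ratio 11.7, 10.9 to 12.5). S100a11's other partner, Anxa1, had 0 counts in cluster 6 of all libraries and 3 counts in cluster 7 of each injured library.

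The calcyclin gene S100a6 and the myosin-binding S100a4 did not share that pattern. S100a6 was abundant in both clusters, with 560 and 1529 CPM in clusters 6 and 7 after physical injury (ratio 2.73, 2.55 to 2.92) and 1007 and 722 CPM after ischemia, where cluster 6 had 1.39 times the level of cluster 7 and the sign turned when each cell was weighted equally. S100a4 stood at 27.0 and 40.2 CPM after physical injury (ratio 1.49, 1.00 to 2.18), and after ischemia it was lower in cluster 7, at 15.7 against 46.1 CPM, a 2.93-fold difference (2.41 to 3.57) that fell within 2-fold when each cell was weighted equally. In all, 6 of 7 members with enough counts were higher in cluster 7 after physical injury, where 9.63% of all genes were higher and 14.9% lower. After ischemia 5 of 7 were higher, where 9.08% of all genes were, and 1 was lower, where 17.6% were. These counts include Lgals1, on which the group was selected, in the contrast that selected it, and nothing is read from them. With edgeR's TMM scaling the member counts after ischemia were the same and these shares were 14.9% and 10.1%.

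**Figure D1:**
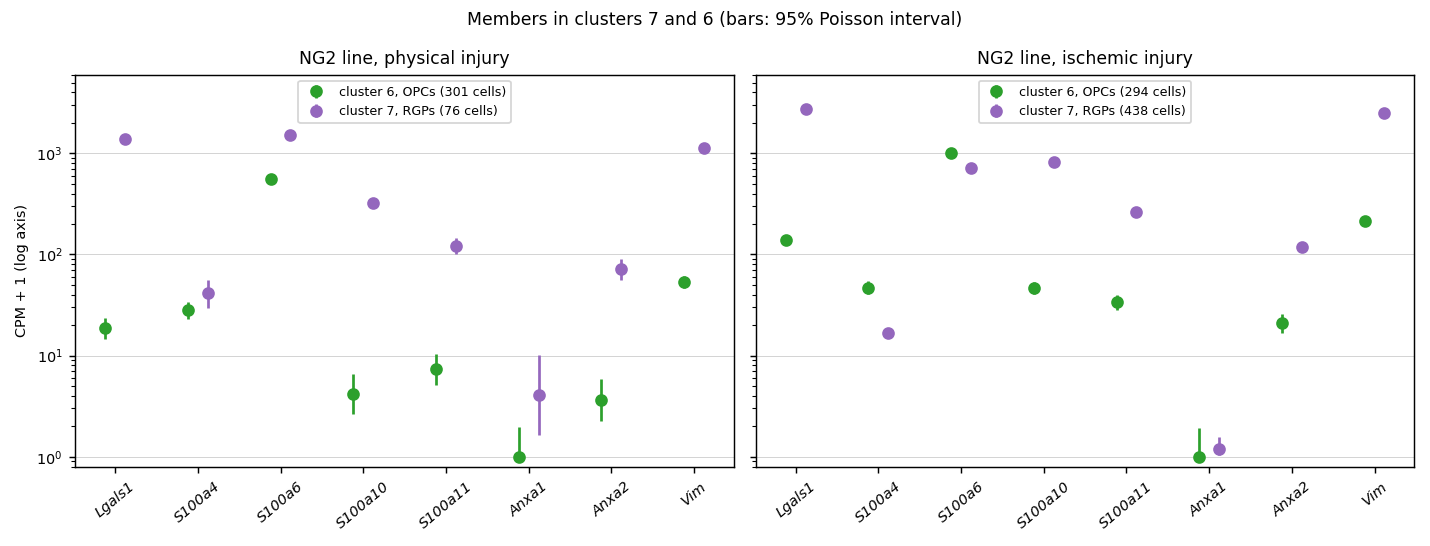
Summed level of each member in NG2 clusters 6 and 7 after physical injury (left) and ischemic stroke (right). The log axis is CPM with 1 added, and the bars are 95% counting intervals. Lgals1, S100a10, S100a11, Anxa2 and Vim lie higher in cluster 7 in both libraries, while the S100a4 and S100a6 levels of the clusters lie close together or cross.

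The Lgals1 difference that chose the group is described here cell by cell at equal depth. These are the same cells, so the shares add no support to it. Cells were thinned to 3000 UMIs and shallower ones left out, which kept 261 and 252 cells of cluster 6 and 47 and 397 cells of cluster 7 after physical and ischemic injury. A Lgals1 UMI was found in 3.45% and 15.5% of the cluster 6 cells and in 66.0% and 91.7% of the cluster 7 cells, whose median was 3 and 7 Lgals1 UMIs. At least 10 Lgals1 UMIs were held by 14.9% and 37.0% of the cluster 7 cells and by 0 of 261 and 0 of 252 cluster 6 cells, which allows shares of up to 1.15% and 1.19%. S100a6 UMIs were found in 42.1% and 57.1% of cluster 6 cells and in 78.7% and 71.3% of cluster 7 cells, so that its shares lay much closer than those of Lgals1. For Vim the shares were 11.9% and 23.8% in cluster 6 and 83.0% and 94.7% in cluster 7. Oligodendrocytes of cluster 4, which are not known for making Lgals1, were taken as a comparison for free RNA, although the data do not show that they lack it. They had a Lgals1 UMI in 0 of 99 naïve cells (up to 3.03% allowed), in 0.34% after physical injury and in 2.27% after ischemia when thinned to 1000 UMIs. At that depth cluster 6 had 0.70% and 8.39% and cluster 7 had 53.8% and 80.2% in the injured libraries. Median depths before thinning were 23779 and 29600.5 UMIs in cluster 4, 12390 and 11764.5 in cluster 6 and 12792 and 37572.5 in cluster 7. Unthinned, 294 cells of cluster 4 held 93 Lgals1 UMIs and 301 cells of cluster 6 held 67 after physical injury. After ischemia 592 cells of cluster 4 held 468 and 294 cells of cluster 6 held 545. Thinning makes the UMIs per cell equal but not the free RNA per cell, so the shares do not measure free RNA, and its part was not tested.

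**Figure D2:**
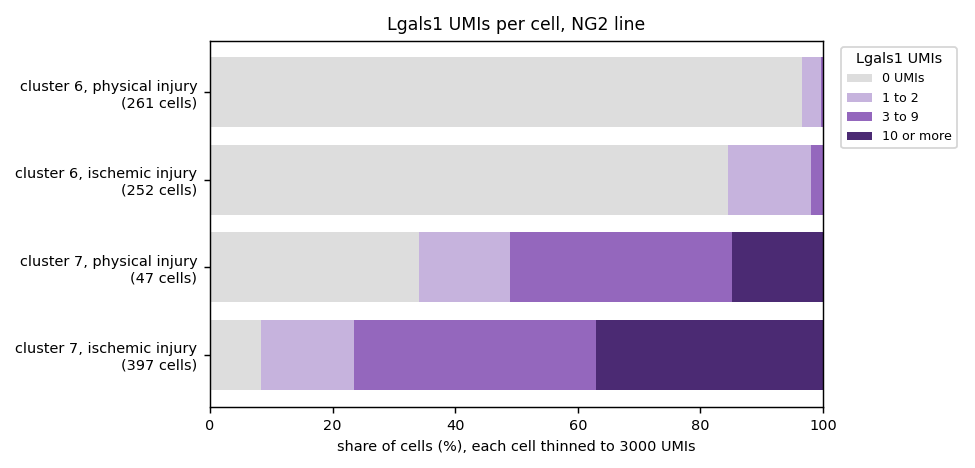
Share of cells (percent, stacked to 100) with 0, 1 to 2, 3 to 9 or at least 10 Lgals1 UMIs after thinning to 3000 UMIs, for clusters 6 and 7 in the injured NG2 libraries. Cells with at least 10 UMIs made up 14.9% and 37.0% of cluster 7 and were not found in cluster 6. This is the contrast that chose the group.

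Within cluster 7 after ischemia, the 397 cells varied in ways that the cluster label hides. Cells with no UMI of the mitotic genes (114 cells) had 3447 CPM of Lgals1, 1357 of S100a6 and 3582 of Vim, whereas the 283 cells with at least 1 had 2670, 643 and 2347 CPM. All 3 genes thus stood at the higher level in the cells without mitotic UMIs, with S100a6 passing 2-fold. In cluster 6 of the same library the levels were 80.3 CPM of Lgals1, 823 of S100a6 and 111 of Vim in 220 cells without mitotic UMIs, and 167, 906 and 292 CPM in 32 cells with at least 1, so that there the higher Lgals1 and Vim levels were in the cells with mitotic UMIs. Over the 397 cluster 7 cells, thinned and of 1 library, the Pearson correlation with Lgals1 was 0.64 for Vim, 0.47 for S100a10, 0.44 for S100a11, 0.17 for Anxa2 and 0.10 for S100a6. Vim was detected in 97.3% of cells with a Lgals1 UMI and in 66.7% of cells without. In cluster 6 the same shares were 56.4% and 17.8%.

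Relatives of the members that had not entered the group were read in the same contrast, from lists of galectins, S100 genes, annexins, intermediate filament genes and binding partners, as a description. Their counts stand beside shares over all genes of 9.63% higher and 14.9% lower after physical injury and of 9.08% higher and 17.6% lower after ischemia. Lgals3, the chimeric galectin of macrophages and reactive glia, was the 1 of 2 galectins called higher in cluster 7 after physical injury, at 32.0 against 0.53 CPM, and 1 of 5 after ischemia, at 251 against 17.0 CPM (ratio 14.8), while 1 other galectin was lower. Of the annexins, Anxa5, which binds exposed phosphatidylserine, was higher in both libraries (ratios 8.51 and 3.16), as 1 of 3 and 1 of 6 tested. Of the other S100 genes, the 2 of 7 called after physical injury were the neutrophil genes S100a8 and S100a9, and after ischemia 0 of 5 were higher and 3 were lower in cluster 7, namely S100a3 (5.99-fold), S100a16 (2.44-fold) and the glial gene S100b (2.01-fold). Among the intermediate filament genes, 4 of 7 were higher and 1, Ina, was lower (2.58-fold) after physical injury, and 5 of 10 were higher and 2 lower after ischemia. Nestin (Nes), the filament of neural progenitors, had ratios of 8.08 and 5.88, and the nuclear lamins Lmnb1 and Lmna were higher in both libraries. The neurofilament gene Nefl had a ratio of 22.9 after ischemia, whereas Ina and Synm were then 3.24-fold and 6.50-fold lower. Of the binding partners, the hyaluronan receptor Cd44 stood at 44.3 CPM against 0 counts after physical injury and had a ratio of 4.53 after ischemia. The S100a6 partner Cacybp had ratios of 2.10 and 2.35, and Plaur, the urokinase receptor, had a ratio of 5.92 after ischemia, so that 2 of 6 and 3 of 8 partners were called.

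Between the injured libraries, cluster 7 held more S100a10, S100a11 and Vim after ischemia and less S100a4 and S100a6. The ratios of ischemic to physical were 2.53 (2.26 to 2.83) for S100a10, 2.18 (1.81 to 2.64) for S100a11 and 2.20 (2.08 to 2.34) for Vim, and those 3 of 7 were the members called higher against a background of 5.17%. Lgals1 just missed the limit at 1.96 (1.86 to 2.07). S100a4 and S100a6 were 2.56-fold (1.78 to 3.6) and 2.12-fold (2.00 to 2.24) lower, against a background of 5.93%, and neither was called once the stated cell filters were applied again. In the physical injury library 8 of the 76 cells held S100a8 or S100a9 UMIs and all 3 Anxa1 UMIs, and without them the levels were 1413 CPM for Lgals1 and 1551 CPM for S100a6, with the same number of members called.

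Cluster 6 held more Lgals1 and S100a6 after either injury and more of the other tested members after ischemia. Its 100 naïve cells had 3.52 CPM of Lgals1 (2 counts), and its level was 17.7 CPM after physical injury (ratio 5.03, 1.34 to 42.4) and 138 CPM after ischemia (ratio 39.2, 10.8 to 325). S100a6 stood at 186, 560 and 1007 CPM, higher by 3.00 (2.47 to 3.69) and 5.40 times (4.46 to 6.62). Lgals1 and S100a6 were the 2 of 5 tested members called after physical injury, with a background of 5.26%, and 7 of 7 were called after ischemia, with a background of 8.63%. Vim stood at 26.4, 52.8 and 214 CPM and was 8.12-fold higher after ischemia (4.90 to 14.6). S100a4 went from 14.1 to 27.0 and 46.1 CPM (3.28-fold after ischemia) and S100a11 was at 8.79, 6.34 and 32.9 CPM (3.74-fold). The RNA levels of S100a10 and Anxa2 were near the floor before ischemia. S100a10 had 0 counts in the naïve cells, 3.17 CPM after physical injury and 45.6 CPM after ischemia, at least 8.64-fold higher. Anxa2 stood at 5.27, 2.64 and 20 CPM in the same order (3.79-fold after ischemia). Galectin-3, Cd44 and the astrocyte filament gene Gfap had 0 counts in the naïve cells and 17.0, 18.2 and 10.6 CPM after ischemia. These genes were picked from the lists of relatives and partners, whose other genes are not given here, so nothing is read about the lists. A count of 3 in the naïve cells would be 5.27 CPM. The OPC markers of the cluster summed to 14633, 15564 and 13463 CPM in the naïve, physical and ischemic libraries, the RGP markers to 1768, 2280 and 2602 CPM and the pericyte markers to 1860, 249 and 301 CPM, and their part in these differences was not tested. In the oligodendrocytes of cluster 4, the comparison for free RNA, Lgals1 stood at 2.29, 13.2 and 27.0 CPM. The part of free RNA in cluster 6 was not tested.

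A gene abundant in one cluster can appear at low level elsewhere through free RNA, so Lgals1 was set beside Fabp7, which cluster 7 also held at high level. In the ischemic NG2 library there were 0.864 Lgals1 UMIs per Fabp7 UMI in cluster 7, 0.200 in cluster 6, 1.14 in the oligodendrocytes of cluster 4, 2.78 in the endothelial cells of cluster 5, 5.41, 9.06 and 8.53 in the pericyte clusters 0, 1 and 2, 22.4 in smooth muscle cells and 86.5 in cluster 8. The ratio was thus below that of cluster 7 in cluster 6 and above it in the other clusters listed. Cluster 6 held Fabp7 at 457 CPM in the naïve library already, and at 576 and 689 CPM after physical and ischemic injury. Its ratio therefore does not measure free RNA. Its counting interval was 0.853 to 0.875 in cluster 7 and 1.00 to 1.31 in oligodendrocytes. After physical injury the ratio was 0.672 (0.627 to 0.721) in cluster 7 and 1.75 (1.24 to 2.51) in oligodendrocytes. The ratio in free RNA itself was not measured. Fabp7 itself stood at 10.0 CPM in naïve and 58.9 CPM in ischemic cells of cluster 0, and at 1.57 and 50.8 CPM in cluster 5. The part of free RNA in the levels of the other clusters was not tested.

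Pericytes of the NG2 line, the capillary mural cells that formed clusters 0, 1 and 2 (3243, 1106 and 1085 cells), held more Lgals1, S100a6, S100a10 and Vim after ischemia. Lgals1 stood at 182 CPM in naïve cells, 209 after physical injury and 416 after ischemia, the latter 2.29-fold higher than naïve (2.16 to 2.44). Vim stood at 87.1, 104 and 201 CPM (2.31-fold, 2.11 to 2.52). S100a6 and S100a10 had low levels throughout, at 1.33, 3.55 and 18.1 CPM (13.6-fold, 8.03 to 24.5) and at 0.94, 2.05 and 13.4 CPM (14.3-fold, 7.61 to 29.1). After physical injury 0 of 7 members passed 2-fold, with a background of 0.474%. After ischemia these 4 of 7 did, with a background of 1.35%, while S100a11, Anxa1 and Anxa2 had ratios of 1.95 (1.84 to 2.06), 1.25 and 1.19. Against physical injury, S100a6 and S100a10 were higher after ischemia (5.11-fold and 6.51-fold), with a background of 1.55%, and Lgals1 and Vim had ratios of 1.99 and 1.94.

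The 3 pericyte clusters did not move to the same extent. In cluster 1 the Lgals1 level was 215, 250 and 677 CPM in the naïve, physical and ischemic libraries (3.14-fold after ischemia, 2.82 to 3.5), in cluster 2 it was 189, 199 and 406 CPM, and in cluster 0 it was 155, 196 and 319 CPM. Cluster 1 was the highest of the 3 in each library. There 6 of 7 tested members were higher after ischemia, with a background of 1.59%. These also included S100a11, at 252, 311 and 622 CPM (2.47-fold), Vim, at 101, 124 and 311 CPM (3.06-fold), and Anxa1, at 7.77, 9.11 and 20.3 CPM (2.61-fold, 1.36 to 4.90). Anxa2 stood at 122, 119 and 165 CPM. S100a6 went from 2.39 to 26.7 CPM (11.2-fold) and S100a10 from 0.90 to 24.6 CPM (27.4-fold, 8.27 to 142). In cluster 1 the summed pericyte markers were 41033, 41032 and 41433 CPM, while the oligodendrocyte markers were 235, 162 and 561 CPM, the RGP markers 261, 248 and 470 CPM and the mitotic genes 2.99, 9.94 and 51.2 CPM. In cluster 0 the oligodendrocyte markers were 201, 124 and 405 CPM, and the part of these in the levels was not tested.

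**Figure D3:**
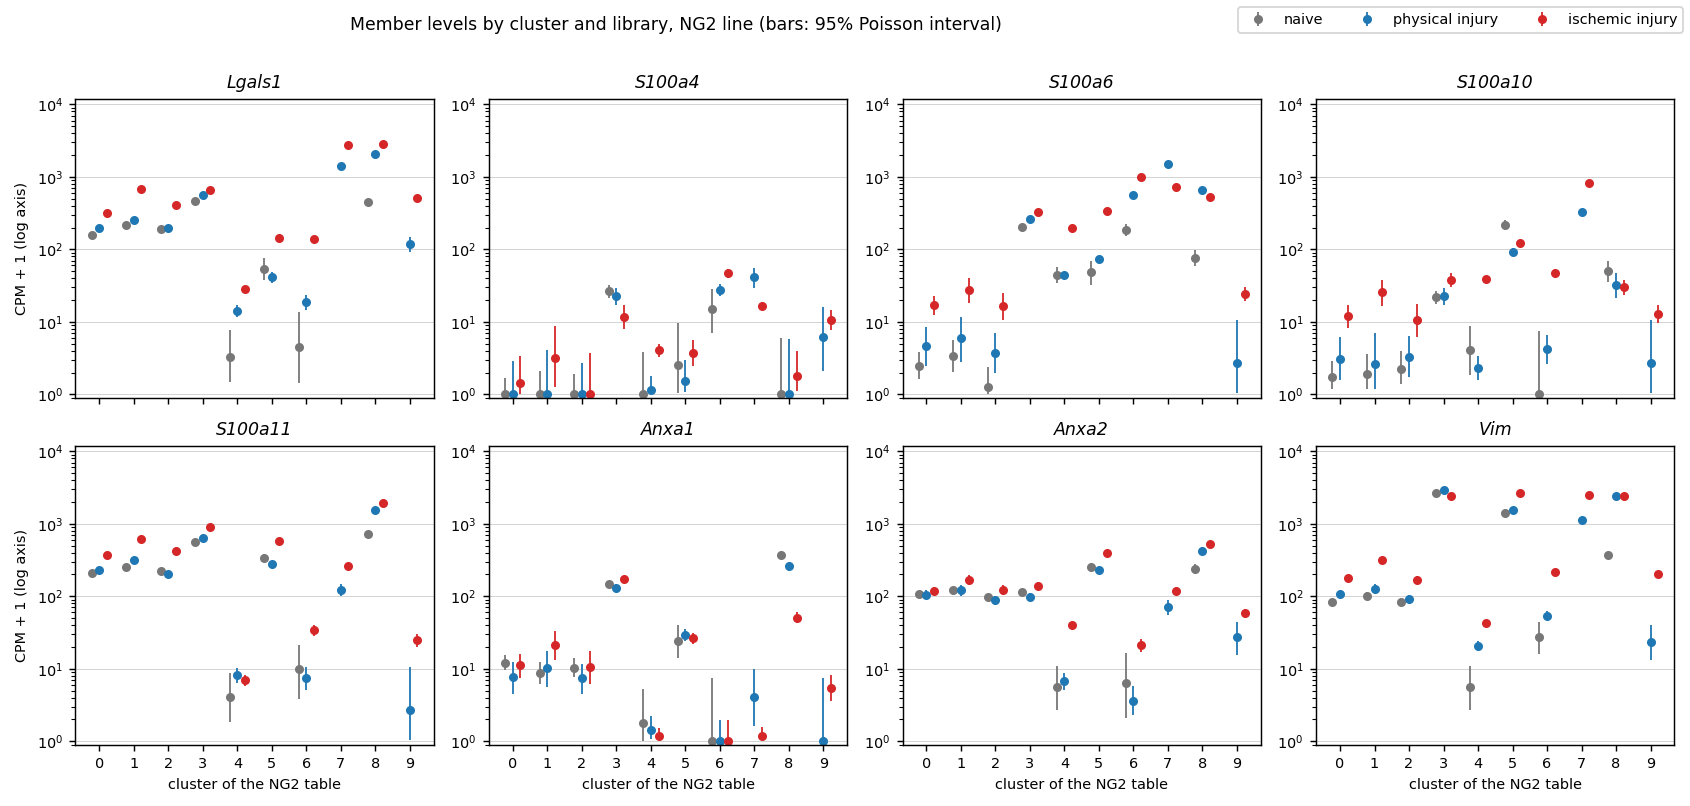
Level of each member (CPM with 1 added, log axis, 95% counting intervals) in clusters 0 to 9 of the NG2 line, with the naïve, physical injury and ischemic libraries as separate points. Groups under 20 cells are not drawn. Lgals1 is highest in clusters 7 and 8 of the injured libraries. Vim is high in those groups, in smooth muscle cells (cluster 3) and in endothelial cells. In clusters 0 to 2 the levels of Lgals1 and Vim are highest in the ischemic library.

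The mesenchymal-like cells of cluster 8, another group that the study set apart among the mural cells, held Lgals1 at 452 CPM in 177 naïve cells, 2060 in 81 cells after physical injury and 2873 in 240 cells after ischemia. The ratios to naïve were 4.56 (4.05 to 5.15) and 6.36 (5.70 to 7.12). Both injured libraries were high, and Vim moved with Lgals1, at 365, 2411 and 2410 CPM, 6.60-fold higher in each. S100a6 stood at 75.7, 665 and 521 CPM (8.78-fold and 6.87-fold) and S100a11 at 724, 1526 and 1927 CPM (2.11-fold and 2.66-fold). Anxa2 stood at 237, 424 and 517 CPM and passed 2-fold after ischemia (2.18-fold). Anxa1, by contrast, stood at 372, 258 and 49.8 CPM and was 7.46-fold lower after ischemia (6.01 to 9.31), while S100a10 stood at 48.7, 31.6 and 29.2 CPM. In all, 4 of 7 tested members were higher after physical injury, with a background of 4.97%, and 5 were higher and 1 lower after ischemia, with backgrounds of 7.7% and 9.52%. The plasminogen system genes Plaur and Plat and the receptor Cd44 were the 3 of 8 partners called higher after ischemia, by 47.2 (12.9 to 391), 2.43 and 3.66 times. Thinned to 1000 UMIs, 35.6%, 66.2% and 79.7% of the cells had a Lgals1 UMI. The pericyte markers summed to 25908, 26593 and 24104 CPM and those of smooth muscle to 2924, 6094 and 3655 CPM in the 3 libraries.

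In smooth muscle cells of the NG2 line (cluster 3; 503, 242 and 277 cells) the members were already present before injury, and most stayed within 2-fold of that level. Lgals1 stood at 467, 570 and 669 CPM, Vim at 2689, 2901 and 2453 CPM, S100a6 at 206, 261 and 331 CPM and S100a11 at 555, 640 and 899 CPM. None of these passed 2-fold, with backgrounds of 0.939% and 1.03% for higher levels after physical injury and ischemia. S100a4 was the 1 member called, at 25.5, 21.8 and 10.8 CPM and 2.35-fold lower after ischemia (1.51 to 3.81), with a background of 1.3%. That call was lost when the cells of highest doublet score were left out.

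Endothelial cells, which line the vessels and formed cluster 5 (101, 404 and 453 cells), held more Lgals1 and S100a6 after ischemia. Lgals1 stood at 53.3, 40.1 and 141 CPM, 2.65-fold higher after ischemia (1.88 to 3.87), and S100a6 at 47.0, 71.8 and 334 CPM (7.10-fold, 4.95 to 10.6). These 2 were called against a background of 6.5%. After physical injury 0 members were higher, with a background of 5.79%, and S100a10, at 216, 91.9 and 121 CPM, was 2.36-fold lower (1.92 to 2.88), with a background of 2.31%. Vim stood at 1386, 1560 and 2690 CPM, S100a11 at 337, 280 and 580 CPM, Anxa2 at 249, 229 and 400 CPM and Anxa1 at 23.5, 28.2 and 25.5 CPM. Red cell markers summed to 701, 8249 and 9118 CPM in the same cells, and their part in the levels was not tested.

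Oligodendrocytes of cluster 4 (103, 294 and 592 cells) had low levels of most members in the naïve library. Lgals1 stood at 2.29, 13.2 and 27.0 CPM (5.76-fold after physical injury, 1.91 to 28.4, and 11.8-fold after ischemia, 4.01 to 57.4) and Vim at 4.59, 19.9 and 42.2 CPM (4.33-fold and 9.21-fold). These were the 2 of 5 tested members called after physical injury, with a background of 3.88%, and 0 were called without the cells of highest doublet score. After ischemia 6 of 7 were called, with a background of 11.2%, including S100a6, at 43.6, 43.2 and 194 CPM (4.46-fold), S100a10, at 3.06, 1.28 and 38.2 CPM (12.5-fold), and Anxa2, at 4.59, 5.68 and 39.5 CPM (8.62-fold). S100a4 had 0 counts in the naïve cells and 3.06 CPM after ischemia, at least 1.34-fold higher. These are the cells used above as a comparison for free RNA, and the part of free RNA in their levels was not tested. In the microglia of cluster 9, the brain's resident macrophages, 36 and 164 cells of the injured libraries were compared. Lgals1 stood at 117 CPM after physical injury and 518 after ischemia (4.45-fold, 3.49 to 5.77), Vim at 22.6 and 205 CPM (9.05-fold), and 6 of 7 tested members were higher after ischemia, with a background of 8.14%. The microglial markers of these cells summed to 20324 and 21893 CPM, those of other myeloid cells to 457 and 1093 CPM, mitotic genes to 370 and 611 CPM, oligodendrocyte markers to 151 and 632 CPM and pericyte markers to 36.5 and 245 CPM, and their part was not tested.

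Over the ischemic NG2 library, Lgals1 was highest in cluster 8 at 2873 CPM (2807 to 2941) and next in cluster 7 at 2728 CPM (2701 to 2754). Clusters 1 and 3 followed at 677 (625 to 732) and 669 CPM (636 to 703), with overlapping intervals, then the microglia, clusters 2, 0 and 10, and then clusters 5 and 6 at 141 (131 to 153) and 138 CPM (127 to 150), which also overlapped. Oligodendrocytes were lowest at 27.0 CPM. Cluster 7 held 74.5% of all Lgals1 UMIs of that library, from 12.2% of its cells and 27.9% of its UMIs. Its cells were deep, and when every cell was thinned to 1000 UMIs the share was 47.6%. Cluster 7 also held 88.1% of the S100a10 UMIs, 57.9% of the Vim UMIs and 49.5% of the S100a6 UMIs, whereas smooth muscle cells held 54.9% of those of Anxa1. Thinned, these shares were 77.2%, 33.2%, 37.7% and 49.1%. Among single clusters of the naïve library, smooth muscle cells held the largest share of Lgals1 UMIs, 39.9% (27.0% thinned). Pericyte clusters 0, 1 and 2 held 853, 720 and 751 Lgals1 UMIs against 1816 in smooth muscle cells, so together they held more. Their thinned shares were 22.2%, 23.5% and 17.4%. After physical injury the shares of clusters 8, 3 and 7 were 27.0%, 23.9% and 23.3%. With cells thinned they were 20.7%, 23.4% and 12.4%, so that cluster 3 then held more than cluster 8. Lgals1 over whole libraries stood at 224, 235 and 1022 CPM in the naïve, physical and ischemic libraries of the NG2 line and at 130, 667 and 525 CPM in those of the Tbx18 line.

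In the Tbx18 line, whose driver marks mural cells and some fibroblast-like cells, the pericytes of cluster 2 (226, 433 and 86 cells) held more of 6 of 7 tested members after physical injury and of 7 of 7 after ischemia, S100a4 having too few counts. Lgals1 stood at 112 CPM in naïve cells, 482 after physical injury and 465 after ischemia, 4.32-fold and 4.17-fold higher. Vim stood at 86.1, 642 and 633 CPM (7.46-fold and 7.35-fold) and S100a11 at 195, 558 and 738 CPM (2.86-fold and 3.78-fold). Both injured libraries were high, and by similar amounts. The members that were rare in naïve cells had the larger ratios: S100a6 stood at 2.02, 189 and 213 CPM (93.5, 31.7 to 456, and 106, 34.7 to 523), S100a10 at 1.34, 48.5 and 68.1 CPM (36.1 and 50.6) and Anxa1 at 11.4, 269 and 326 CPM (23.6 and 28.5). Anxa2 stood at 89.4, 173 and 207 CPM, with ratios of 1.94 and 2.32. The backgrounds were 7.75% after physical injury and 6.73% after ischemia. The cells of these libraries also differed in kind and depth: pericyte markers summed to 31057, 20052 and 19250 CPM, smooth muscle markers to 1980, 5999 and 3048 CPM and endothelial markers to 165, 804 and 1192 CPM, with median depths of 6547.5, 2540 and 3791.5 UMIs. The part of these in the ratios was not tested.

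Smooth muscle cells of the Tbx18 line (cluster 1; 63, 827 and 47 cells) had Lgals1 at 259, 493 and 742 CPM, a ratio of 1.90 after physical injury and 2.86 after ischemia. S100a6 stood at 30.6, 225 and 234 CPM and was higher in both injured libraries (7.34-fold and 7.63-fold). S100a10, at 4.08, 21.6 and 13.7 CPM, and S100a4, with 0 counts, then 16.3 and 4.58 CPM, were called after physical injury, by 5.28-fold and at least 2.67-fold. S100a11 stood at 363, 595 and 994 CPM (2.74-fold after ischemia) and Vim at 1492, 2901 and 2514 CPM, with ratios of 1.94 and 1.68. In each injured library 3 members were called, with backgrounds of 8.75% and 4.72%. With TMM or DESeq2 scaling the count after physical injury was 6. The share of all genes called under that scaling is not given here, so the 6 cannot be set beside the 8.75%. The smooth muscle markers of these cells summed to 23874, 37514 and 30327 CPM, the pericyte markers to 8208, 2755 and 8456 CPM and the endothelial markers to 67.3, 162 and 1012 CPM, and their part was not tested.

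The cells of Tbx18 clusters 3 and 4 carried high S100 levels after injury, but the naïve cells under the same cluster numbers were of another kind. Cluster 4 (157, 349 and 143 cells), named vascular-genic pericytes by the study, was led by Prg4, Slc4a10, Col25a1, Slc47a1 and Penk, and its pericyte markers summed to 16100, 133 and 26.1 CPM, with 0 counts of the pericyte gene Abcc9 after either injury. Its Lgals1 level was 237, 4369 and 5752 CPM (18.4-fold and 24.3-fold), its S100a6 level 220, 3841 and 5939 CPM (17.5-fold and 27.0-fold) and its Vim level 989, 4305 and 5012 CPM. Anxa1, Anxa2, S100a10 and S100a11 reached 985, 1146, 801 and 2094 CPM after ischemia, from 72.1, 134, 165 and 354 CPM. All 8 members were called in both libraries, where the backgrounds were 19.6% and 18.1%, the latter 32.5% with TMM scaling. This cluster held 59.2% and 70.3% of the Lgals1 UMIs of the injured libraries, from 9.08% and 6.99% of their cells. Because the cells also differed in markers, a difference between conditions cannot be told apart from a difference between kinds of cell.

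Cluster 3 (76, 318 and 265 cells), named microglia by the study and led by Cd86, Ptprc, Cybb, Cd74 and Ccr2, was the source of most S100a4. S100a4, which bone marrow-derived leukocytes express strongly, had 0 counts in the naïve cells and stood at 597 and 861 CPM after physical and ischemic injury, at least 22.4-fold and 32.3-fold higher, and the cluster held 87.8% and 92.6% of the S100a4 UMIs of those libraries. Lgals1 stood at 44.4, 575 and 626 CPM. All 8 members were called higher in both libraries, beside backgrounds of 30.3% and 31.7%, the latter 44.9% with TMM scaling. Myeloid markers summed to 26.6, 34480 and 29852 CPM and pericyte markers to 21279, 61.5 and 8.47 CPM in the 3 libraries, so here too the condition and the kind of cell cannot be told apart.

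Cluster 0 of the Tbx18 line (159, 1788 and 1488 cells), named endothelial cells by the study and led by Hba-a1, Hbb-bt, Hba-a2 and Hbb-bs, was the group in which Lgals1 was lower after ischemia. Its level was 33.7, 23.2 and 11.3 CPM, 2.99-fold lower after ischemia (1.88 to 4.57), with a background of 7.18%. The pericyte markers of these cells summed to 3915, 359 and 105 CPM in the same order, the smooth muscle markers to 1497, 158 and 56.3 CPM and the red cell markers to 33.7, 3758 and 3693 CPM, while the endothelial markers summed to 13267, 15169 and 15177 CPM. Their part in the levels was not tested. S100a6 stood at 44.5, 103 and 99.3 CPM (2.32-fold and 2.23-fold) and Anxa2 at 120, 243 and 252 CPM (2.02-fold and 2.10-fold), and these 2 members were higher in each injured library, with backgrounds of 7.18% and 8.54%. Neither was called after ischemia once the cell filters were applied again. S100a10 stood at 154, 104 and 109 CPM, S100a11 at 200, 273 and 350 CPM and Vim at 1081, 1607 and 1781 CPM. The fibroblasts of cluster 5, with 116 cells after physical injury against 5 naïve and 10 ischemic cells, had 770 CPM of Lgals1 and 1686 CPM of S100a6 after physical injury.

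**Figure D4:**
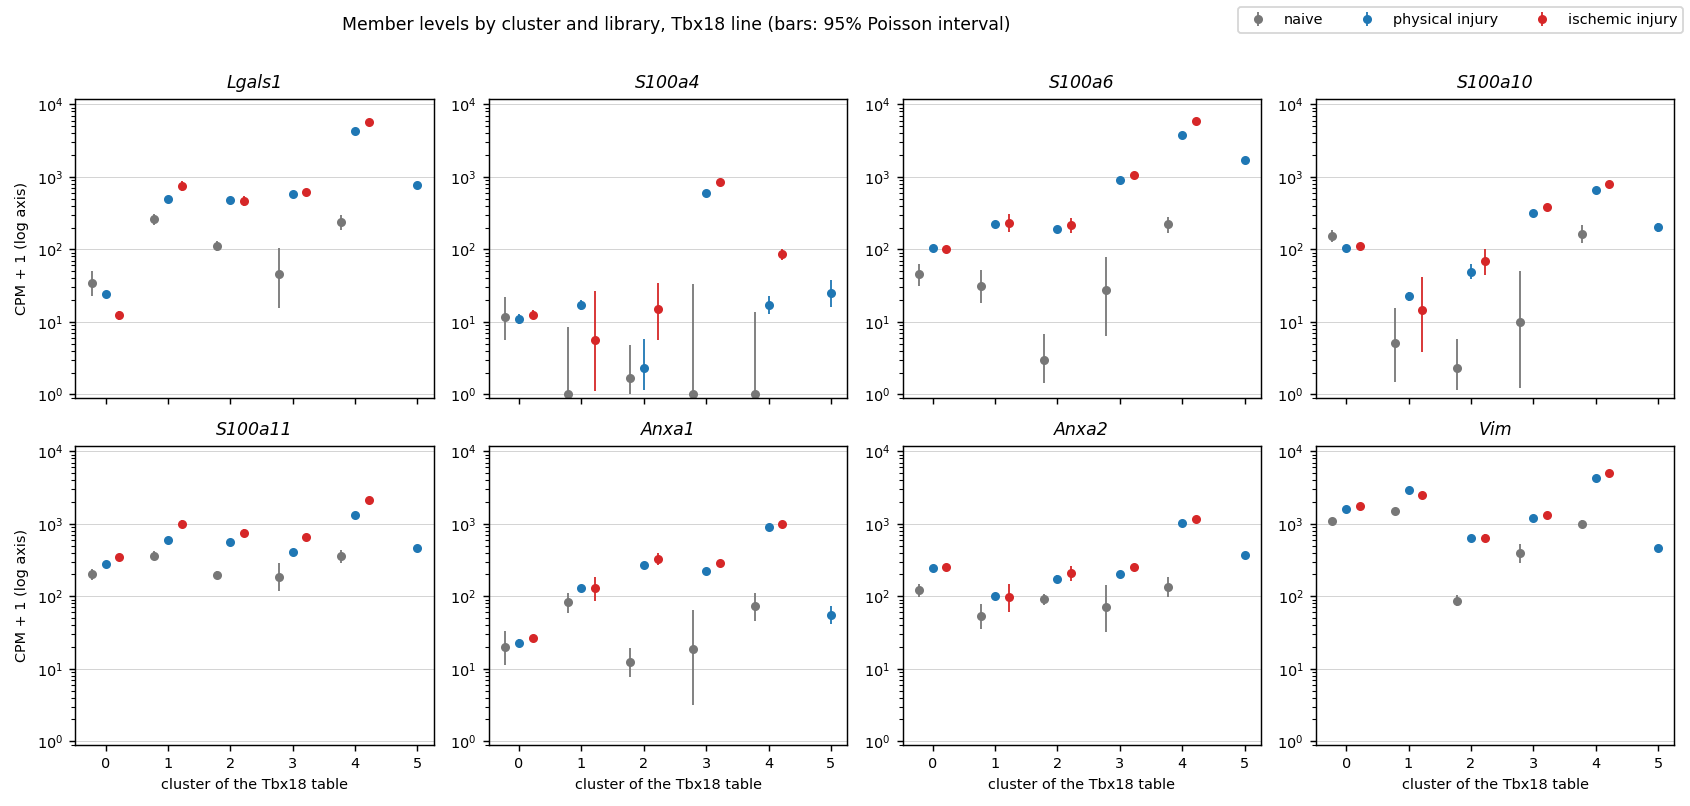
Level of each member (CPM with 1 added, log axis, 95% counting intervals) in clusters 0 to 5 of the Tbx18 line in the naïve, physical injury and ischemic libraries. Groups under 20 cells are not drawn. In cluster 2 the injured libraries lie above the naïve one for all members but S100a4, and for S100a4 the injured cells of cluster 3 are highest.

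The 2 lines were compared in naïve cells alone, in the table that clustered them together. Over the pericyte-like clusters 0, 2, 3, 5 and 8 (237 Tbx18 and 2555 NG2 cells) 0 of 6 members were more than 2-fold higher in the Tbx18 line, and 0 were lower, with backgrounds of 4.25% higher and 5.06% lower. Clusters 1, 6, 7 and 9, with 36, 246, 27 and 7 Tbx18 cells, were not pooled although they also held pericyte markers. Those markers summed there to 38952, 15781, 22907 and 17965 CPM in the Tbx18 line. Over the pooled clusters Lgals1 stood at 111 CPM in the Tbx18 line and 197 CPM in the NG2 line. The NG2 level was 1.77 times the Tbx18 level (1.5 to 2.1) and was the larger in each of the 5 clusters. Read singly, the members called lower in the Tbx18 line were Lgals1 in cluster 3 (36.7 against 179 CPM, background 17.4%), S100a11 in cluster 5 (144 against 385 CPM, background 10.1%) and Lgals1 (64.3 against 136 CPM) and Anxa1 (0 counts against 24.1 CPM) in cluster 8 (background 10.5%). S100a11 stood at 179 and 231 CPM, Anxa2 at 83.9 and 103 CPM and Vim at 109 and 116 CPM. These naïve libraries also served as the controls of the injury comparisons.

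**Figure D5:**
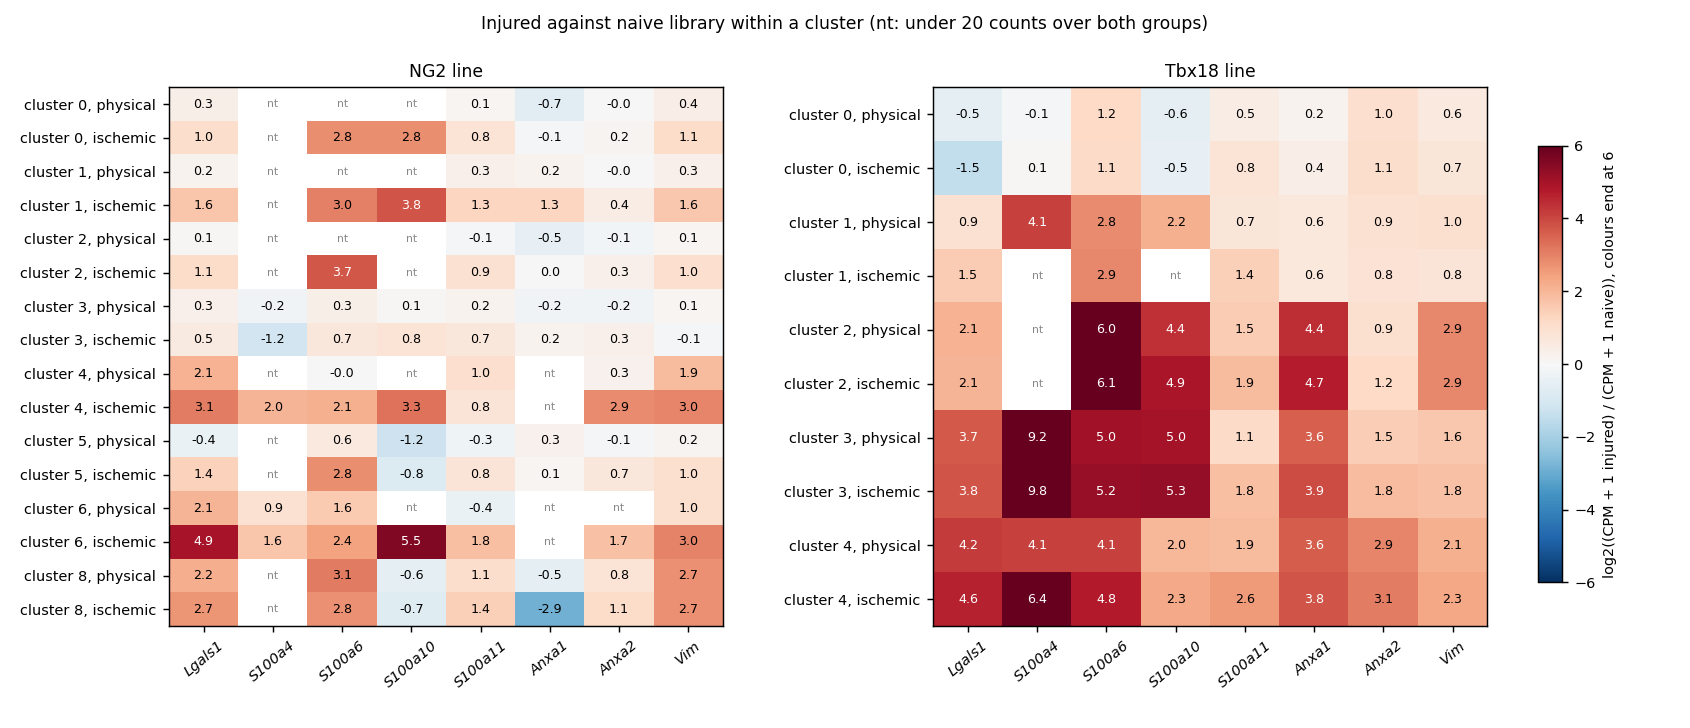
Log2 of the ratio of injured to naïve level (CPM with 1 added to both) for each member, by cluster and injury in the NG2 and Tbx18 lines. Colour runs from lower to higher and ends at 6, and nt marks genes under 20 counts. Physical and ischemic rows share the naïve cells, and Tbx18 clusters 3 and 4 are the rows whose naïve cells were of another kind.

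Across the 42 groups of cells made by line, library and cluster with at least 50 cells, the members fell into looser and tighter pairs. The groups share libraries and differ in depth, so the Pearson correlations of log2 levels are descriptions. S100a11 and Anxa2 had the highest (0.90), S100a11 and its partner Anxa1 had 0.82, Lgals1 and S100a11 had 0.73, and S100a4 and S100a11 had the lowest (0.08). Over 10202 genes, the closest to each member were, for Lgals1, Slc25a3 (0.87), Cks1b (0.83) and Eif5a (0.82). For S100a4 they were Iqgap2 (0.82), Arl4c (0.80) and Plxnc1 (0.78), and for S100a6 Uck2 (0.81), Gas5 (0.78) and Glipr2 (0.74). S100a10 lay closest to Emp1 (0.88), Rpl38 (0.83) and Rpl41 (0.83), and S100a11 to Tpm4 (0.92), Cnn2 (0.92) and Plp2 (0.90). Anxa1 lay closest to Myof (0.90), Tuba1c (0.80) and Ahnak (0.79), and Anxa2 to Tpm4 (0.90), Capg (0.90) and Tax1bp3 (0.86). For Vim they were Plec (0.94), Plp2 (0.89) and Eif4ebp1 (0.88). With rank correlation 12 of these 24 places were kept, and 9 of 21 were kept in the NG2 line alone, where S100a4 was too low to be compared.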

How the data were processed

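Cells of 6 sorted libraries were sequenced by 10x 3' single-cell RNA-seq. Per the submitters' processing notes, reads were aligned and counted with Cell Ranger 7.0.0 (GRCm38, mm10). The authors filtered cells in Seurat on detected genes, RNA counts and mitochondrial share and integrated the libraries in 3 sets, and the deposited tables hold the UMI counts of those cells, not normalized, with an annotation of library and cluster per cell. The library of each cell was taken from that annotation. The authors' list of differential genes was not used.

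Counts were summed per cluster and library with Python 3.11.15, numpy 2.4.6, pandas 2.3.3 and scipy 1.17.1 and divided by the summed UMIs of all genes (CPM). Levels carry exact Poisson intervals, shares exact Clopper-Pearson intervals and ratios exact intervals conditional on the counts, all at 95% and covering counting error only. Groups under 20 cells were not compared, except naïve NG2 cluster 4, which fell to 19 cells when the cell filters were applied again. With 1 library per group no test was made. A ratio was called when it passed 2-fold after adding 1 CPM, for genes with at least 20 counts over both groups, and a level of 0 was replaced by 3 counts for lower bounds. Ratios printed have no CPM added. Cells were thinned to 1000 UMIs, or 3000, for shares of cells. The steps were tested on simulated data. Plots were drawn with matplotlib 3.10.9.

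The members and the lists of markers, relatives and partners were chosen with earlier results of these data known. The genes named were the 8 members, the genes of those lists and, for each member, the 3 genes of most similar level. Those 3 were taken over groups of at least 50 cells, among genes that are not members and have a mean of at least 10 CPM, with mitochondrial genes left out. Scrublet, as run in scanpy 1.11.5, called 67 of 17033 cells doublets, too few to be taken as a working call, so no cell was removed and leaving out the 460 cells of highest score was an alternative. Other alternatives were TMM factors (edgeR 4.0.16, R 4.3.3), DESeq2 1.42.0 size factors, no filter or at least 100 counts, 10 CPM added, equal weight for cells, the cell filters applied again per library (200 genes, 12% mitochondrial UMIs, 2 SD), and totals without mitochondrial and ribosomal protein genes. Leaving out the cells with S100a8 or S100a9 UMIs was chosen after the data were seen.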

Additional observations from a re-analysis of the deposited data

Results flagged for a closer look

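Of 42 pairs of injury ratios read in both lines, 9 had opposite signs in the NG2 and Tbx18 lines, and in 3 of these the counting intervals of both ratios left out a ratio of 1. Those 3 are given first. The values are log2 ratios of injured to naïve level with 1 CPM added, and the difference between the lines was not tested, since each group was 1 library. In clusters named endothelial cells (NG2 cluster 5, Tbx18 cluster 0) the Lgals1 ratio after ischemia was 1.39 in the NG2 line and -1.50 in the Tbx18 line, and both passed 2-fold. In the same clusters the S100a11 ratio after physical injury was -0.27 in the NG2 line and 0.45 in the Tbx18 line, and neither passed 2-fold. In smooth muscle cells the Vim ratio after ischemia was -0.13 in the NG2 line (cluster 3) and 0.75 in the Tbx18 line (cluster 1, 47 ischemic cells), and neither passed 2-fold. The pericyte markers of Tbx18 cluster 0 summed to 3915 CPM in the naïve and 105 CPM in the ischemic library, and their part in the Lgals1 values was not tested. In the other 6, all after physical injury, the interval of the NG2 ratio held 1. In clusters named endothelial cells these were -0.12 and 1.01 for Anxa2 in the NG2 and Tbx18 lines. In smooth muscle cells they were -0.21 and 4.12 for S100a4, -0.19 and 0.64 for Anxa1 and -0.19 and 0.90 for Anxa2. In pericytes they were -0.40 and 4.44 for Anxa1 and -0.09 and 0.95 for Anxa2.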

How the results depend on the processing

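With 1 library per group, no replicate could be left out, and differences between animals, batches and conditions cannot be told apart. No paired analysis was possible because the labels give each line and condition a single pooled library. Of 164 called member ratios, 163 stayed past 2-fold with TMM factors, 164 with DESeq2 size factors, 142 with 10 CPM added, 153 with cells weighted equally, 148 with the cell filters applied again, 158 without the cells of highest doublet score and 130 with at least 100 counts, which left the other 34 untested. None changed sign, and 2871 of 3174 alternative ratios lay inside the counting interval of the reported one. That count includes the settings with no filter or at least 100 counts, which change the genes tested and leave each ratio as it was. It therefore overstates how far the ratios held. TMM factors moved the median log2 ratio of all genes from -0.28 to 0.04 between NG2 clusters 7 and 6 after ischemia and from -0.06 to 0.77 in Tbx18 cluster 3 after ischemia. Several counts of called members were different, and they are given here without the shares of all genes under the same settings, so nothing is read from them. With at least 100 counts they were 1 (from 2) for NG2 clusters 0 to 2 between injuries, 2 (from 4) in cluster 0 and 3 (from 6) in cluster 1 after ischemia, 1 (from 2) in clusters 4 and 6 after physical injury and 3 (from 6) in cluster 9. With 10 CPM added they were 1 (from 2) for NG2 clusters 0 to 2 between injuries, 2 (from 4) in cluster 0 and 0 (from 1, lower) in cluster 3 after ischemia, 1 (from 2) in cluster 4 after physical injury, 1 (from 2, lower) in cluster 7 between injuries and 1 (from 2) in Tbx18 cluster 0 after physical injury. With equal weight for cells they were 0 (from 1, lower) between clusters 7 and 6 after ischemia, 4 (from 2) for clusters 0 to 2 between injuries, 1 (from 3) in cluster 2 after ischemia and 1 (from 2, lower) in cluster 7 between injuries. With the filters applied again they were 1 (from 2) in NG2 cluster 4 and in Tbx18 cluster 0 after physical injury, 0 (from 2) in Tbx18 cluster 0 after ischemia, 0 (from 2, lower) in NG2 cluster 7 between injuries and 5 (from 3) in Tbx18 cluster 1 after physical injury. Without the cells of highest doublet score they were 0 (from 1, lower) in NG2 cluster 3 after ischemia, 0 (from 2) in cluster 4 and 1 (from 2) in Tbx18 cluster 0 after physical injury. TMM factors gave 1 (from 2, lower) in NG2 cluster 7 between injuries, and TMM and DESeq2 factors gave 6 (from 3) in Tbx18 cluster 1 after physical injury, where no filter gave 5 (from 3) after ischemia. Over all naïve comparisons of the lines 4 calls became 17 with no filter and 11 with cells weighted equally. Of 336 shares, each of 1 member in 1 cluster of 1 library, 39 reached 50% of cells at 1000 UMIs, 87 at 3000 and 121 without thinning. Cluster 7 held 74.5% of the ischemic Lgals1 UMIs of the NG2 line, and 47.6% with cells thinned to 1000 UMIs. Of the 24 most similar genes, 12 were the same by Spearman's rho, and of the 21 that could be compared in the NG2 line alone, 9 were. Leaving out the cells with S100a8 or S100a9 UMIs, chosen after the data were seen, left the counts at 6, 3 and 2. Where a value moved, the cause was not tested.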

Other observations

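Relatives of the members in the pericytes of Tbx18 cluster 2 were also read between injured and naïve cells, where 7.75% of all genes were higher after physical injury and 6.73% after ischemia. Of the galectins, 2 of 3 tested were called higher after physical injury and 1 of 2 after ischemia, of the annexins 1 of 6 and 1 of 5, and of the intermediate filament genes 2 of 5 and 1 of 4. Galectin-9 (Lgals9), a tandem-repeat galectin of immune regulation, had ratios of 2.87 after physical injury and 2.95 after ischemia. Anxa3 had ratios of 4.67 and 4.44, and the muscle filament gene Des had 2.27 and 2.19. Synm, which co-assembles with desmin and vimentin, had a ratio of 6.81 after physical injury. Of the binding partners, 0 of 6 passed 2-fold after either injury. NG2 cluster 10, with 44, 23 and 43 cells, had 102, 31.0 and 251 CPM of Lgals1 in the naïve, physical and ischemic libraries.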
